A study of Mus with 14 samples.

Results

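Messenger RNA of 9 mouse genes that make heme or bring in the iron for it was followed through bone marrow progenitors at single-cell resolution. The genes were chosen by name, and all 9 of them were found among the 32285 genes of the count matrices. Alas2, Alad, Uros, Urod, Cpox, Ppox and Fech encode enzymes of heme synthesis, Tfrc encodes the transferrin receptor that carries iron into the cell, and Slc25a37 encodes mitoferrin, which moves iron into mitochondria.

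Heme is built from glycine and succinyl-CoA by a chain of enzymes that starts in the mitochondrion, passes through the cytosol and returns to the mitochondrion, where Fech inserts iron into protoporphyrin. The first step is made by Alas2 in erythroid cells and by the separate gene Alas1 elsewhere, and it limits the rate of the pathway. Maturing red cell precursors need far more heme and iron than other marrow cells, since each globin chain carries a heme group, and the iron arrives mostly as transferrin bound to its receptor.

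Lin-Kit+CD45.2+ cells, which are donor-derived, lack markers of mature lineages and carry the receptor Kit, were sorted from the bone marrow of 14 secondary transplant recipients, with 1 library per mouse. There were 3 MxCre mice, labelled with the inducible recombinase alone. Another 4 mice were labelled Dnmt3a, 3 were Dnmt3a;Tnfr1KO and 4 were Dnmt3a;Tnfr2KO, and the labels do not describe the Dnmt3a allele. All groups went through the same procedure. CD45.2+ marrow was mixed with CD45.1+ competitor marrow and given to aged, lethally irradiated CD45.1+ hosts, which received a single injection of poly(I:C), the agent that switches on MxCre, and marrow of these hosts was passed to further aged, irradiated recipients that were examined 20 weeks later. Which primary hosts supplied which recipients is not in the labels. Recipients with a common donor are possible, and the p-values then measure only the spread between these libraries.

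Total counts ran from 62416022 to 162869740 unique molecular identifiers (UMIs, 1 per captured transcript) per library, and 66895 cells were kept, 1924 to 7265 per mouse. Dnmt3a replicate 4 was the shallowest per kept cell (median 10575 UMIs) and Dnmt3a replicate 1 the deepest (39086 UMIs), and in the latter 26.9% of barcodes passed the filters. No pair of libraries shared more than 23 cell barcodes. Levels are given on the counts-per-million scale (CPM), from the UMIs of a gene and all UMIs summed over the cells of a class in a mouse. Tnfrsf1b, the gene targeted in Dnmt3a;Tnfr2KO, was at 4.78 ± 0.671 CPM (SD, n = 4) there over all cells and at 14.9 ± 1.76 CPM (n = 4) in Dnmt3a. Tnfrsf1a was at 36.1 ± 2.53 CPM (n = 3) in the libraries labelled Dnmt3a;Tnfr1KO and at 47.1 ± 8.42 CPM (n = 4) in Dnmt3a, a difference of −0.19 ± 0.19 (log2, SE; adjusted p = 0.597, edgeR's quasi-likelihood test). The mean level of the Dnmt3a transcript itself was highest in the Dnmt3a group, at 33.3 ± 4.30 CPM. It was 25.2 ± 4.75 CPM for MxCre mice, 20.9 ± 1.72 CPM where the label was Dnmt3a;Tnfr1KO and 22.3 ± 0.839 CPM where it was Dnmt3a;Tnfr2KO, and no comparison of it was called by edgeR. The counts of Tnfrsf1a do not check the label Dnmt3a;Tnfr1KO, and Dnmt3a;Tnfr1KO is written Tnfr1KO-labelled from here on. Dnmt3a;Tnfr2KO is shortened to Tnfr2KO, and both groups carry the Dnmt3a label too.

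Cells were placed in lineages by markers among which none of the 9 genes stood, and 5404 of the kept cells were erythroid, 104 to 1043 per mouse. Erythroid cells with a UMI of Gata2, a factor of early progenitors, and none of Ermap, an erythroid membrane protein, were called early (1211 cells), and those with a UMI of Ermap and none of Gata2 late (1373 cells). Cells with both, written double-positive, numbered 2541 with globin chains under 1% of UMIs. Late cells fell into 860 with globin chains under 1% of UMIs and 513 at or above that share, and 19 late cells lay between 0.5% and 2%. The double-positive class and the globin split were set after the data had been seen, so levels along these finer steps are described and not tested. The calls of stage need a UMI of a single gene and so lean on depth: the median cell had 11320 UMIs among early cells, 26257 among double-positive cells, 27572 among late cells of low globin and 9511 among late cells of high globin.

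The erythroid marker list was detected throughout, with its 10 genes summing to 1674 to 2251 CPM in early cells and 5381 to 6614 CPM in late cells of high globin. Ermap was at 0 in early cells by the rule. Markers of other lineages were also detected in early cells. HSC/MPP markers (stem cells and multipotent progenitors) summed to 377.2 to 528.55 CPM there and granulocyte markers to 125.99 to 529.99 CPM. Megakaryocyte markers summed to 66.565 to 107.9 CPM, and those of basophils and mast cells to 35.332 to 165.14 CPM. Dendritic markers were at 0 CPM in all early cells. Of the 7 markers of T and NK cells, 6 had no UMI there, and Nkg7 alone gave that list 285 to 358 CPM. The part of these transcripts in the levels of early cells was not tested. Granulocyte markers summed to 63.7 to 5228 CPM in late cells of low globin, with a median of 150 CPM. Transcripts of Kit, the protein on which the cells were sorted, had a median of 111 CPM in late cells of low globin and of 0.141 CPM in those of high globin.

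Alas2, the erythroid form of the rate-limiting enzyme, was near 0 in HSC/MPP and in the erythroid classes of low globin, and high in late cells of high globin. Its level per mouse was 0 to 3.42 CPM with a median of 0.359 in HSC/MPP (stem cells and multipotent progenitors, 14 mice with at least 20 such cells). It was 0 to 1.69 CPM with a median of 0 in early cells (11 mice), 0 to 1.06 CPM with a median of 0.0937 in double-positive cells (13 mice) and 0 to 1.27 CPM with a median of 0.193 in late cells of low globin (12 mice). In late cells of high globin, the 6 mice had 688, 701 and 1073 CPM (MxCre replicates 1 to 3), 1446 CPM (Dnmt3a replicate 4), and 1017 and 1032 CPM (Tnfr1KO-labelled replicates 1 and 3). No mouse of any earlier class came near these levels, whereas the earlier classes all overlapped each other. Pooled over mice, 7215 Alas2 UMIs came from the 513 late cells of high globin and 13 from the 860 late cells of low globin. The ratio of the rates per UMI was 2457 with a 95% interval of 1436 to 4617, which covers counting error only. By the same measure late cells of low globin exceeded double-positive cells 3.23 times (1.36 to 7.73), from 13 and 12 UMIs, and early cells 2.52 times (0.693 to 13.8), from 13 and 3 UMIs.

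**Figure D1:**
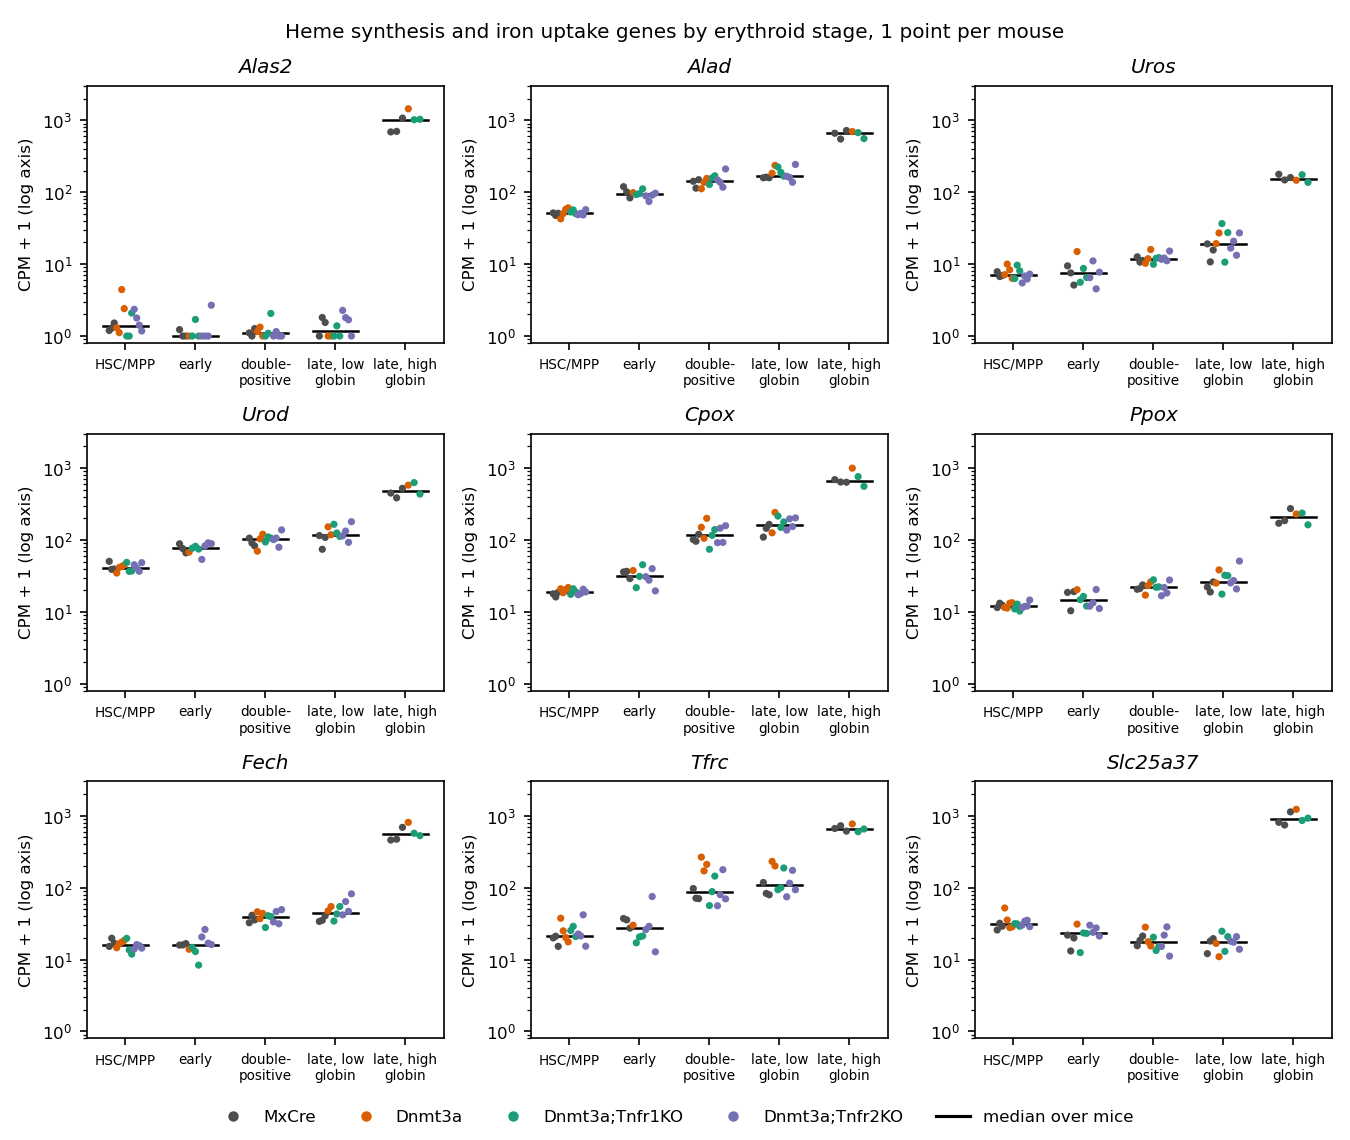
Level of each gene, as CPM + 1 on a log axis, in HSC/MPP and in 4 erythroid classes, with 1 point per mouse that has at least 20 cells of the class, coloured by group, and a line at the median. Alas2 and Slc25a37 stay low until the last class, where Alas2 reaches 688 to 1446 CPM, while Cpox, Fech and Tfrc are already higher in double-positive cells.

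At least 1 Alas2 UMI was found in 97.3% of the late cells of high globin (95% exact binomial interval 95.5% to 98.5%). The share was 1.40% (0.723% to 2.42%) in late cells of low globin and 0.524% (0.417% to 0.650%) in granulocytes, whose median depths of 27572 and 29384 UMIs were alike, and 1.41% in B-lymphoid cells at a median of 3946 UMIs. Pooled over mice, the share in late cells of low globin lay above that in granulocytes, at like depth. The levels per mouse overlapped, at 0 to 1.27 CPM and 0 to 1.87 CPM. The intervals cover counting error only and not the spread between mice. Thinned to 5000 UMIs per cell, the shares were 94.96% in late cells of high globin, 0.363% in late cells of low globin, 0.0805% in granulocytes, 0.651% in neutrophils and 1.62% in B-lymphoid cells, with 57, 34, 739, 819 and 1937 shallower cells left out. At this equal depth, the pooled share in late cells of low globin was below those of neutrophils and B-lymphoid cells. No intervals were computed for the thinned shares, so their order is not established.

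Alas2 UMIs were also counted against globin UMIs, class by class. There were 2.87 Alas2 UMIs per 1000 globin UMIs in late cells of high globin, 3.13 in those of low globin, 3.12 in double-positive cells, 2.97 in HSC/MPP, 3.04 in granulocytes, 2.75 in B-lymphoid cells and 2.56 in macrophages. The lowest ratio among classes with an Alas2 UMI was 1.65 in megakaryocyte cells, from 18 UMIs, and the highest was 4.57 in T and NK cells, from 35 UMIs. Dendritic cells had 0 Alas2 UMIs beside 89 globin UMIs. In these pooled counts, Alas2 UMIs outside the late cells of high globin thus came at about the ratio to globin UMIs that those cells have. Dnmt3a replicate 4 weighs heavily in the pool: it had 412128 Hba-a1 UMIs over all cells, and each other mouse had 3624 to 39026. Ratios per mouse are not given, so their spread between mice is not known. The part of free RNA in these low levels was not tested.

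**Figure D2:**
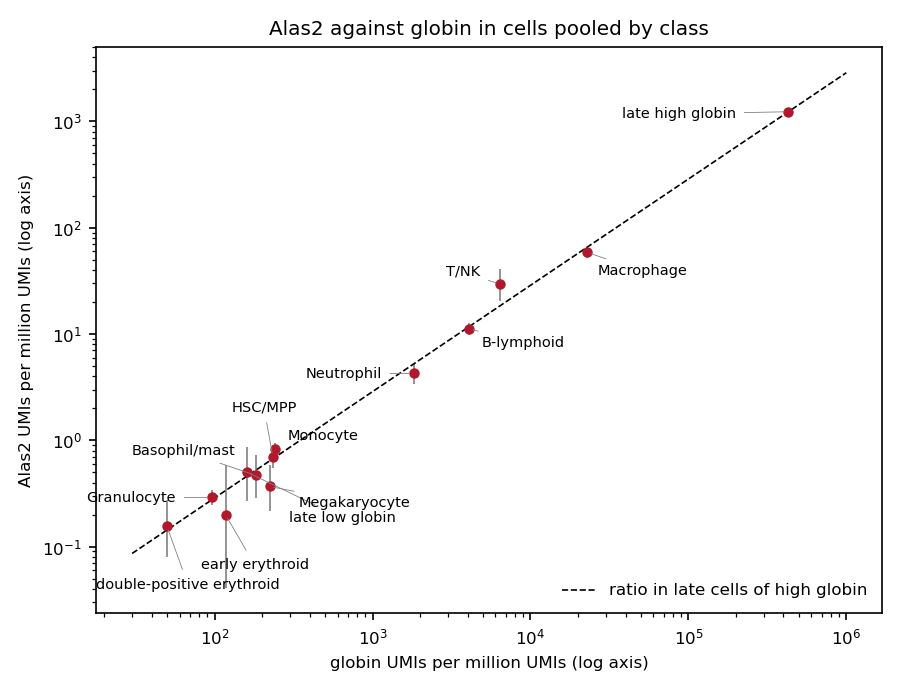
Alas2 level against globin level (both in CPM on log axes), with the cells of all mice pooled by class and bars for 95% Poisson intervals of the Alas2 count. The dashed line is the ratio in late cells of high globin (2.87 Alas2 UMIs per 1000 globin UMIs), of which 266 of 513 came from Dnmt3a replicate 4. The other classes with an Alas2 UMI lie on both sides of it, at 1.65 to 4.57.

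Alad and the enzymes after it were detected in every one of these classes and were mostly higher at each step. Alad, which joins 2 molecules of aminolevulinate into porphobilinogen, had medians of 49.9 CPM in HSC/MPP, 94.6 CPM in early cells, 141 CPM in double-positive cells, 166 CPM in late cells of low globin and 666 CPM (548 to 720) in late cells of high globin. Its early and HSC/MPP ranges, 73.3 to 118 and 41.6 to 59.6 CPM, did not overlap. Uros, which closes the porphyrin ring, had medians of 6.04, 6.55, 10.9, 18.2 and 153 CPM in the same order. Its levels in HSC/MPP and early cells overlapped, and the last class (136 to 177 CPM) lay far above the others. Urod, which trims the side chains of the ring, had medians of 40.1, 75.8, 102, 116 and 484 CPM. The range of its last class, 384 to 626 CPM, lay above the highest value of late cells of low globin, 178 CPM.

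Cpox and Ppox carry out the oxidations that lead to protoporphyrin, and Fech adds the iron. Cpox had medians of 17.8, 30.1, 115, 158 and 663 CPM, and its 11 mice with both classes each had a higher level in double-positive than in early cells, where it lay between 18.5 and 44.2 CPM. Ppox had medians of 10.97, 13.8, 20.98, 24.6 and 206 CPM, and Fech of 14.9, 14.97, 38.6, 43.9 and 548 CPM. Fech did not differ between HSC/MPP (10.9 to 18.8 CPM) and early cells (7.37 to 25.2 CPM) beyond the spread between mice, and its double-positive levels (26.9 to 48.4 CPM) lay above both.

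The 2 iron genes differed from each other in timing. Tfrc had medians of 20.2 CPM in HSC/MPP, 26.4 in early, 87.0 in double-positive, 107 in late cells of low globin and 658 CPM (598 to 767) in late cells of high globin. It was higher in double-positive than in early cells in 11 of 11 mice. Slc25a37 had medians of 29.7, 22.1, 16.7, 16.7 and 891 CPM (742 to 1226 in the last class). It was higher in double-positive than in early cells in 4 of 11 mice, and higher in late cells of low globin than in double-positive cells in 4 of 12, so its level did not climb before the high-globin class. Granulocytes (24.1 to 56.3 CPM) and HSC/MPP (24.8 to 51.2 CPM) held as much Slc25a37 as early erythroid cells did, or more.

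Within mice, the order of the finer classes was much the same for most of the genes. Double-positive exceeded early cells in 11 of 11 mice for Alad, Cpox, Fech and Tfrc, in 10 of 11 for Uros, Urod and Ppox, and in 4 of 11 for Alas2. Late cells of low globin exceeded double-positive cells in 12 of 12 mice for Cpox, in 11 of 12 for Alad, Uros and Fech, in 10 of 12 for Urod, Ppox and Tfrc, and in 6 of 12 for Alas2. Late cells of high globin exceeded those of low globin in 5 of 5 mice for all 9 genes, without overlap. The median difference in log2(CPM + 1) at that step was 9.44 for Alas2, 5.47 for Slc25a37, 3.76 for Fech, 3.30 for Ppox, 3.22 for Uros, 2.68 for Tfrc, 1.96 for Urod, 1.95 for Cpox and 1.76 for Alad. Globin chains took 43.0% of the UMIs in late cells of high globin, so CPM understates other transcripts there. With globin UMIs left out of the total, the median CPM in that class was 1575 for Alas2, 945 for Alad, 1092 for Tfrc and 1373 for Slc25a37.

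The stages and lineages were then compared over mice with edgeR's quasi-likelihood test, with the mouse as a block, over the 12358 genes that passed its filter on low counts. From HSC/MPP to early erythroid cells, 4 of the 9 genes rose, where 19.1% of all genes tested rose and 29.5% fell. Alad rose by 1.04 ± 0.17 (log2, SE; adjusted p = 1.2e-07), Urod by 1.02 ± 0.18, Cpox by 1.05 ± 0.24 and Tfrc by 0.64 ± 0.27 (adjusted p = 0.040, and 0.137 without MxCre replicate 1). Ppox was at 0.56 ± 0.30 (adjusted p = 0.12), and DESeq2 called it along with the other 4, where it called 21.6% of all genes as higher. Ppox was also called by edgeR without Dnmt3a replicate 4. Uros at 0.38 ± 0.36, Fech at 0.34 ± 0.35, Slc25a37 at −0.24 ± 0.41 and Alas2 at −0.89 ± 1.81 did not pass.

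From early to late erythroid cells, all 9 genes rose, where 28.8% of all genes tested rose and 33.7% fell, and the median difference was 2.85 (log2) over the 9 and −0.08 over all genes tested. Alas2 rose by 8.71 ± 0.63, a fitted value that rests on 3 UMIs in early cells. The ratio of pooled rates was 1144 (95% counting interval 391 to 5546), to which Dnmt3a replicate 4 gave 269 late cells and 1 early cell. Within the 11 mice with both classes, the difference in log2(CPM + 1) was 3.35 to 8.42, with a median of 5.60. Cpox rose by 3.15 ± 0.22, Fech by 3.10 ± 0.31, Tfrc by 2.99 ± 0.25, Slc25a37 by 2.85 ± 0.40, Uros by 2.57 ± 0.31, Ppox by 2.13 ± 0.28, Alad by 1.64 ± 0.17 and Urod by 1.498 ± 0.19. The largest adjusted p among them was 2.7e-09, for Slc25a37. The late class mixes cells of low and high globin. In its low-globin cells alone, Alas2 was at 0 to 1.27 CPM and Slc25a37 at 9.96 to 23.8 CPM, ranges that overlapped those of early cells.

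Late erythroid cells were also set against other lineages, and all 9 genes were higher in each case. Late cells of low globin alone had Slc25a37 at a median of 16.7 CPM, wholly below granulocytes and under the medians of megakaryocyte cells (20.9 CPM), monocytes (21.3) and basophils and mast cells (23.5), and their Alas2 range overlapped that of each of these lineages. In the comparison with megakaryocyte cells, which share a progenitor with erythroid cells, the share of all genes that were higher was 32.6%. That share was 34.5% against granulocytes, 34.5% against monocytes and 33.1% against basophils and mast cells. After Alas2, Cpox differed most in each of these 4 comparisons, from 3.47 ± 0.19 against megakaryocyte to 4.53 ± 0.20 against basophil and mast cells. Tfrc differed by 3.43 ± 0.22 against megakaryocyte cells and by 2.05 ± 0.18 against granulocytes, in which its median was 50.4 CPM. In all 1035 single-gene alternatives of the late comparisons (other scaling, filters, gates, DESeq2, or a mouse left out), direction and call were kept. None of these alternatives limited the late class to its cells of low globin. In those cells the range of Uros overlapped megakaryocyte cells and basophils and mast cells, that of Ppox the latter, and that of Tfrc granulocytes. Alad, Urod, Cpox and Fech there lay above all 4 lineages.

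**Figure D3:**
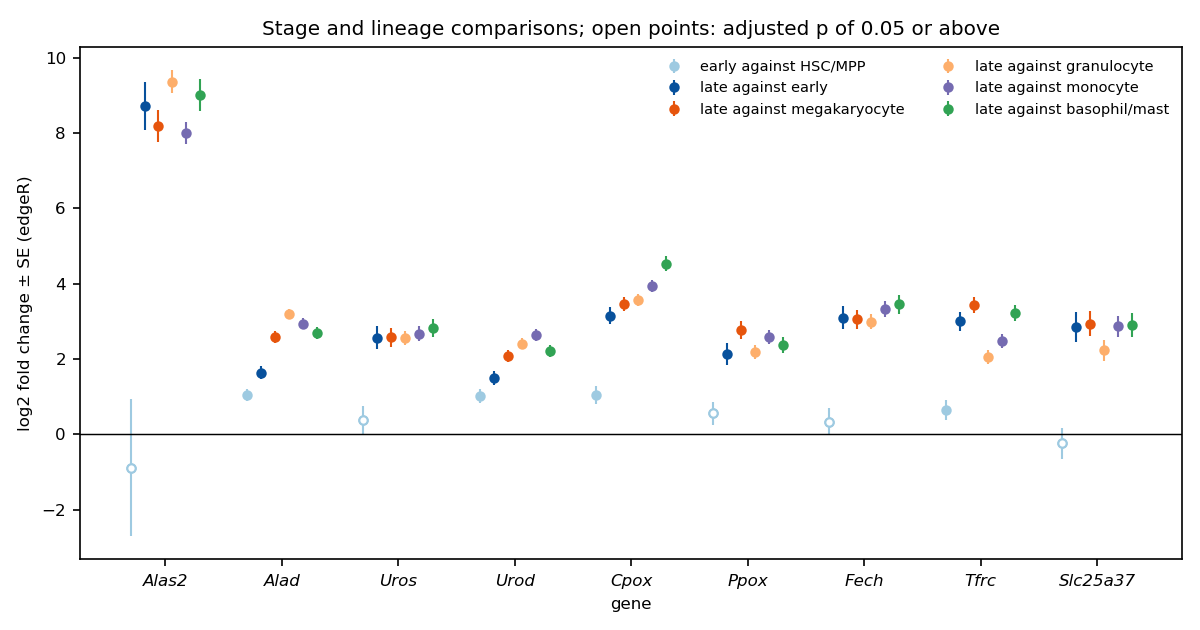
Difference in level (log2 fold change ± SE, edgeR) of each gene between early erythroid cells and HSC/MPP and between late erythroid cells and 5 other classes. Filled points have an adjusted p below 0.05. Every comparison of late cells lies above 0, and those of Alas2 lie near 8 to 9.

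Genes around the pathway were read from 4 lists. Of the 20 tested genes of heme handling that are not among the 9, 14 rose and 2 fell from early to late cells (median 1.03, against −0.08 over all genes, of which 28.8% rose and 33.7% fell). Fam210b, a mitochondrial inner-membrane protein, rose by 2.90 ± 0.38, and Abcb6, a porphyrin transporter, by 2.08 ± 0.23. Alas1 was not called at 0.14 ± 0.15 (adjusted p = 0.45). Alas1 was highest in granulocytes, at a median of 478 CPM. Its median was 5.03 CPM (2.89 to 39.6) in late cells of high globin, where Alas2 was highest. That range overlapped those of the other erythroid classes, and 1 of 5 mice had more Alas1 there than in late cells of low globin.

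Of 19 genes of iron handling, 13 rose and 2 fell in the same comparison (median 0.65), against the same shares over all genes. The largest changes were in Slc40a1, the iron exporter ferroportin, at 2.17 ± 0.20, Glrx5, which serves iron-sulfur clusters, at 1.95 ± 0.14, and the ferritin heavy chain Fth1 at 1.71 ± 0.13. All 4 globin chains tested rose, Hba-a1 by 9.84 ± 0.82 and Hbb-bs by 9.72 ± 0.87, and Hba-a1 and Hba-a2 are near-identical copies between which reads may be split. Of 10 genes of the red cell membrane, 9 rose and none fell. The largest fitted changes were those of the anion exchanger Slc4a1, Sptb and Epb42. Their medians were 0 CPM in early cells and 107, 29.4 and 17.3 CPM in late cells. Their folds and the order among them are therefore not well determined. In late cells of low globin alone the medians were 0, 9.13 and 2.15 CPM, and in those of high globin 1589, 284 and 207 CPM.

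At the earlier step from HSC/MPP to early cells, 10 of the 20 heme genes rose and 4 fell, and 9 of the 19 iron genes rose and 4 fell, where 19.1% of all genes rose and 29.5% fell. The medians were 0.27 and 0.26, against −0.06 over all genes. Blvrb, a biliverdin reductase, rose by 3.17 ± 0.15, the mitochondrial carrier Slc25a38, which supplies glycine, by 1.48 ± 0.21, and Abcb10 by 1.53 ± 0.33. Slc40a1 rose by 3.39 ± 0.28, Slc11a2, which releases iron from endosomes, by 2.32 ± 0.13, and the ferrireductase Steap3 by 1.81 ± 0.11. Alas1 fell by 0.41 ± 0.14. Hbb-bt fell by 2.26 ± 0.69, and none of the other 3 globin chains tested was called. Kel, Rhag and Add2, of the red cell membrane, rose from medians of 0.303, 0.126 and 0.192 CPM in HSC/MPP to 17.8, 6.28 and 5.04 CPM in early cells, and 6 of 10 genes of that list rose.

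Against other lineages, the heme list had 15 genes higher and 2 lower in late erythroid than in megakaryocyte cells, where 32.6% of all genes were higher and 39.2% lower. It had 15 higher and 3 lower against granulocytes (40.1% of all genes lower), 16 and 3 against monocytes (39.4% lower), and 14 and 4 against basophils and mast cells (40.4% lower). Blvrb differed most in that list each time, by 3.98 ± 0.16, 6.24 ± 0.16, 5.58 ± 0.16 and 4.22 ± 0.15 in this order. Fam210b differed by 2.96 ± 0.29, 3.01 ± 0.23, 3.67 ± 0.24 and 3.20 ± 0.29, and Abcb10 by 2.84 ± 0.27 against megakaryocyte cells. Alas1 was lower by −4.79 ± 0.10 than in granulocytes and by −3.57 ± 0.10 than in monocytes.

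The iron list had 15 genes higher and 1 lower against megakaryocyte cells, 12 and 4 against granulocytes, 12 and 5 against monocytes, and 15 and 3 against basophils and mast cells. Slc40a1 led it against megakaryocyte cells (6.00 ± 0.24), monocytes (7.21 ± 0.19) and basophils and mast cells (3.16 ± 0.17), and Slc11a2 against granulocytes (2.76 ± 0.09). Tfr2, the second transferrin receptor, was higher by 4.93 ± 0.11 than in monocytes, Isca1 by 2.49 ± 0.18 and Steap3 by 2.45 ± 0.08 than in granulocytes, and Glrx5 by 2.201 ± 0.13 than in megakaryocyte cells. All 4 globin chains tested and all 10 membrane genes were higher in each of the 4 comparisons, with Hba-a1 at 8.65 ± 0.61 to 9.89 ± 0.65. Over all genes, 32.6%, 34.5%, 34.5% and 33.1% were higher and 39.2%, 40.1%, 39.4% and 40.4% lower in these comparisons, in the order of the iron counts.

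Likeness of pattern was measured as Pearson's r of log2(CPM + 1) over 93 sums of 7 classes, among 8858 genes, as a description, since the sums of a mouse share a library and its depth. The genes most like Alas2 were Slc4a1 (r = 0.977), Trim10 (0.971), Apol11b (0.969), Hbq1b (0.965) and Btnl10 (0.964). Of the other 8 genes followed here, Fech was most like Alas2 (0.943) and Tfrc least (0.797). The genes most like Tfrc were Hagh (0.867), Tmem14c (0.862), a mitochondrial protein of porphyrin transport, Pabpc4 (0.857), the cell-cycle gene Ccne1 (0.849) and 5430401H09Rik (0.849). Cpox had r = 0.824 with Tfrc and Alad 0.580.

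The groups were compared next, to ask whether these genes differed with the Dnmt3a label, and with the label of a receptor of tumour necrosis factor beside it. Over all cells, edgeR called none of the 9 genes in any of the 4 comparisons. It called 2.51% of all genes for Dnmt3a against MxCre, 0.441% for Tnfr1KO-labelled against Dnmt3a, 0.837% for Tnfr2KO against Dnmt3a and 0.192% for Tnfr2KO against Tnfr1KO-labelled. At an unadjusted p under 0.05 the counts were 1, 0, 2 and 0, and DESeq2 called 1 (Tfrc, where it called 9.86% of all genes), 0, 0 and 0. The share of all genes under that unadjusted limit is not given, here or for the classes below. Unadjusted counts therefore cannot be read as an excess among the 9 genes. In a sum over all cells, more cells of a type and more RNA per cell cannot be told apart.

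Alas2 over all cells was at 1.94, 5.28 and 6.07 CPM in MxCre and at 1.73, 0.396, 1.37 and 61.3 CPM in Dnmt3a replicates 1 to 4. It was at 2.54, 2.33 and 5.01 CPM in Tnfr1KO-labelled and at 1.24, 0.974, 1.27 and 2.19 CPM in Tnfr2KO. Dnmt3a replicate 4 stood apart from the other 13 mice, which lay between 0.396 and 6.07 CPM. For Tnfr2KO against Dnmt3a the difference was −3.27 ± 1.18 (log2, SE; adjusted p = 0.14, edgeR), and without Dnmt3a replicate 4 it turned to 0.50.

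That mouse also differed in the make-up of its erythroid cells. Of its 300 erythroid cells, 266 were late cells of high globin and 1 was early, whereas in the other Dnmt3a mice high-globin late cells made up 0.896% to 14.4% of erythroid cells. Globin chains took a median of 57.5% of the UMIs in its late cells, and 0.74% of its late cells had a Kit UMI, against 40.7% to 85.5% in the other 13 mice. These late classes differ in make-up. Cells of high globin, which as a class held little Kit RNA, were 98.9% of its late cells and 3.23% to 57.4% of those of the others. Why cells with so little Kit RNA were in a Kit+ sort was not tested. Of the 513 late cells of high globin in the study, 266 came from this mouse, and in each of the 5 other mice with at least 20 such cells all 9 genes were higher there than in the late cells of low globin.

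**Figure D4:**
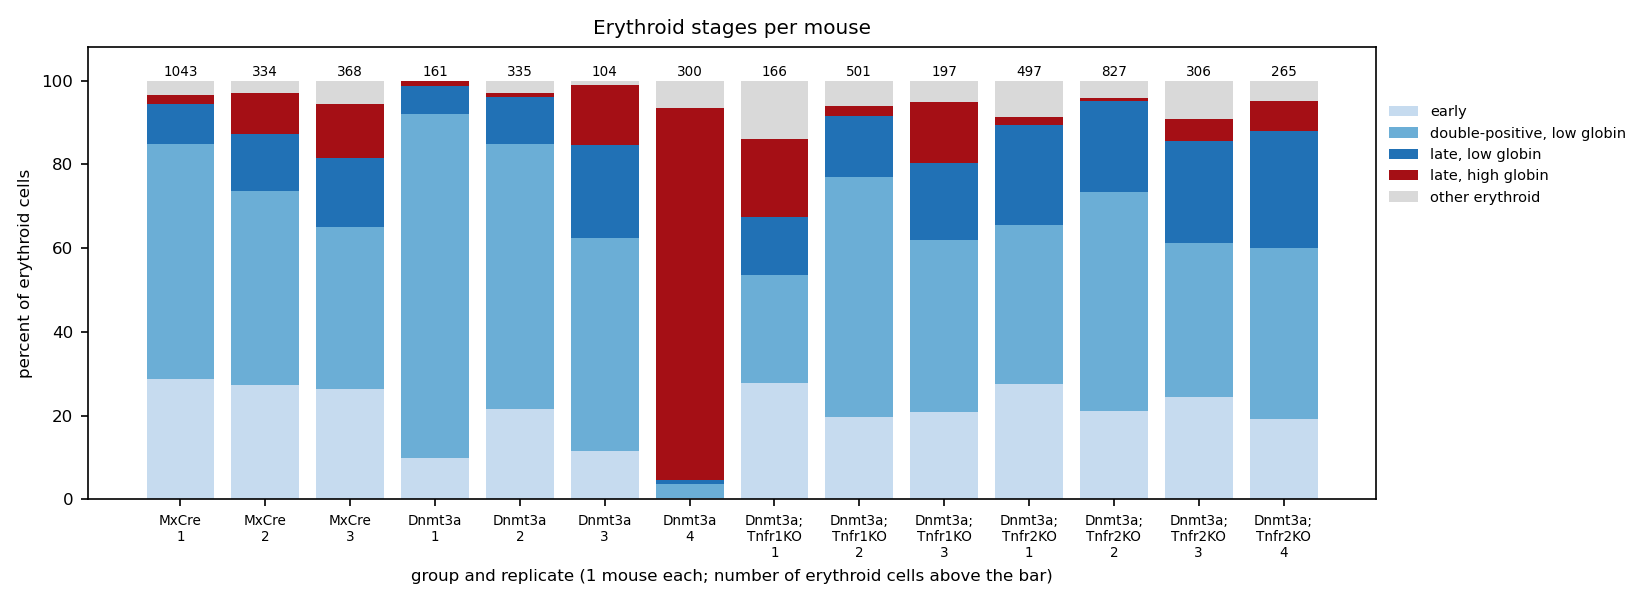
Percent of erythroid cells in each stage class, 1 bar per mouse, with the number of erythroid cells above the bar. Double-positive cells are the largest class in most mice, while late cells of high globin make up 88.7% of the 300 erythroid cells of Dnmt3a replicate 4.

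Erythroid cells were 12.6% ± 4.79 of kept cells in MxCre (SD, n = 3), 7.06% ± 4.45 in Dnmt3a (n = 4), 7.69% ± 5.76 in Tnfr1KO-labelled (n = 3) and 7.67% ± 4.83 in Tnfr2KO (n = 4). None of the 4 comparisons passed an exact two-sided permutation test (p = 0.286 for Dnmt3a against MxCre, 0.8286 to 0.857 for the others, all 0.857 after adjustment). Late cells made up 42.6% ± 12.3 of early and late cells in MxCre, 64.2% ± 29.2 in Dnmt3a, 54.0% ± 7.29 in Tnfr1KO-labelled and 54.9% ± 6.96 in Tnfr2KO (exact permutation p = 0.4 to 0.857). With 4 mice against 3, the smallest p the exact test allows is 0.0571, and with 4 against 4 it is 0.0286. After adjustment over the 4 comparisons none could have passed, so the test cannot decide whether these shares differ.

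Within cell classes the comparison of groups gave the same count of 0 by edgeR. In non-erythroid cells, 3.73%, 0.79%, 1.32% and 0.199% of all genes were called in the 4 comparisons in the order above, and DESeq2 called Tfrc in the first and Alas2 in the third, where it called 11.2% and 8.55% of all genes. In HSC/MPP those shares were 9.64%, 0.74%, 0.848% and 0.133%, with none of the 9 genes at an unadjusted p under 0.05 and none called by DESeq2. In granulocytes, where 8 of the 9 genes passed the filter, they were 6.07%, 4.65%, 5.14% and 0.289%, and DESeq2 called Cpox in Dnmt3a against MxCre (edgeR 0.31 ± 0.10, adjusted p = 0.076), where it called 10.6% of all genes. In monocytes they were 1.24%, 1.21%, 1.74% and 0.212%, again with none under an unadjusted 0.05 and none by DESeq2. The unadjusted counts were 2, 0, 1 and 0 both in non-erythroid cells and in granulocytes.

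Tfrc came nearest to a difference between groups through the double-positive class (lowest adjusted p 0.065, edgeR). Outside that class the lowest adjusted p was that of Cpox in granulocytes (0.076, edgeR), followed by Tfrc in non-erythroid cells (0.078). Over all cells the level of Tfrc was 40.0, 49.2 and 31.4 CPM in MxCre and 84.3, 60.5, 46.6 and 85.6 CPM in Dnmt3a. It was 37.8, 58.1 and 48.3 CPM in Tnfr1KO-labelled and 36.03, 45.8, 51.5 and 31.9 CPM in Tnfr2KO. The Dnmt3a and MxCre ranges overlapped by 1 mouse on each side, and the difference was 0.67 ± 0.22 (log2, SE; adjusted p = 0.10, edgeR). Over 22 alternatives the adjusted p ran from 0.035 with DESeq2, the only one to call it, to 0.32 without MxCre replicate 3.

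In double-positive erythroid cells, a class added after the data had been seen, Tfrc was at 96.2, 70.3 and 69.3 CPM in MxCre and at 265, 170 and 209 CPM in Dnmt3a replicates 1 to 3. Replicate 4, with 10 such cells, was left out. It was at 55.3, 87.0 and 144 CPM in Tnfr1KO-labelled and at 54.9, 78.7, 177 and 68.7 CPM in Tnfr2KO. The 3 Dnmt3a mice lay above all MxCre mice, and 1 Tnfr2KO mouse (177 CPM) lay above the lowest of them. The difference from MxCre was 1.23 ± 0.32 (adjusted p = 0.065, edgeR), past 0.05 in 7 of 24 alternatives and at 0.33 without Dnmt3a replicate 1. Tnfr1KO-labelled differed from Dnmt3a by −0.90 ± 0.33 (adjusted p = 0.19) and Tnfr2KO by −1.01 ± 0.30 (adjusted p = 0.15). These comparisons share the Dnmt3a mice.

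Granulocyte markers were also higher in these cells of Dnmt3a than of MxCre, and so they were in Tnfr2KO, where Tfrc was above the MxCre range in 1 of 4 mice. Their 9 genes summed to 257 to 1519 CPM in double-positive cells of Dnmt3a and to 75.0 to 133 CPM in MxCre. The sums were 84.2 to 170 CPM in Tnfr1KO-labelled and 170 to 395 CPM in Tnfr2KO. Basophil and mast cell markers were at 17.5 to 20.5 CPM in Dnmt3a and 12.9 to 14.8 CPM in MxCre, and dendritic markers at 0.309 to 0.534 and 0 to 0.270 CPM. T and NK markers were lower in Dnmt3a, at 67.9 to 71.6 against 73.7 to 84.7 CPM, and the ranges of the other lists overlapped. Granulocytes themselves held Tfrc at 34.9 to 85.8 CPM, below the double-positive cells of the 3 Dnmt3a mice. The part of granulocyte or other lineage transcripts in the difference was not tested. In double-positive cells 8 of the 9 genes were tested, edgeR called none of them, and it called 0.83%, 0.618%, 0.385% and 0.0607% of all genes in the 4 comparisons. The unadjusted counts there were 1, 1, 2 and 0, and DESeq2 called none.

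**Figure D5:**
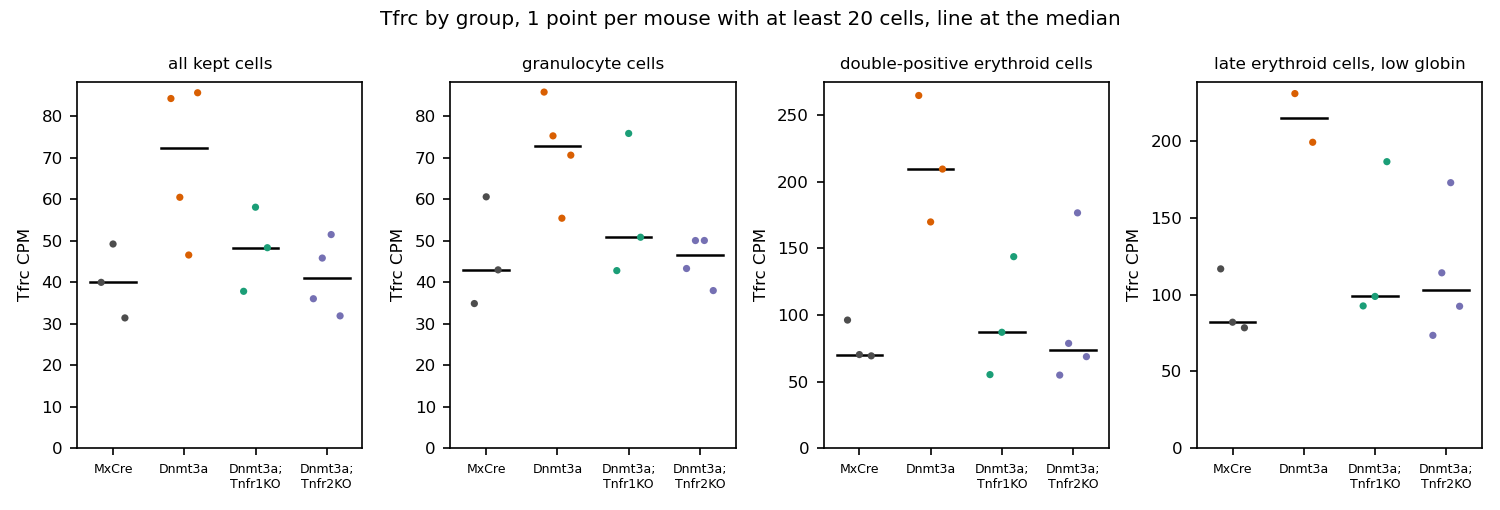
Tfrc level (CPM) by group in all kept cells, granulocytes, double-positive erythroid cells and late erythroid cells of low globin, with 1 point per mouse that has at least 20 such cells and a line at the median. In double-positive cells the 3 Dnmt3a mice lie at 170 to 265 CPM and the 3 MxCre mice at 69.3 to 96.2 CPM.

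In late erythroid cells all 9 genes were lower in Tnfr2KO than in Dnmt3a and none passed the test. The differences ran from −1.75 ± 0.56 for Alad to −4.59 ± 1.32 for Alas2 (log2, SE), with adjusted p from 0.13 to 0.15 in edgeR, and the unadjusted p was under 0.05 for 9 of 9. DESeq2 called 6 of them and 4.46% of all genes. Alas2 was at 15.4, 128 and 1395 CPM in Dnmt3a replicates 2 to 4 (replicate 1, with 13 late cells, was left out) and at 29.2, 9.21, 72.3 and 71.0 CPM in Tnfr2KO, so the groups overlapped and Dnmt3a replicate 4 stood alone. Without that mouse none was called, and the differences were −0.76 for Tfrc, −0.57 for Alas2, −0.27 for Slc25a37, −0.26 for Uros, −0.21 for Alad, −0.15 for Cpox, −0.047 for Fech, −0.018 for Ppox and −0.00081 for Urod (adjusted p of 0.89 for Tfrc and 1.0 for the rest). Without Dnmt3a replicate 2 all 9 were called, beside 19.9% of all genes, and without Dnmt3a replicate 3 all 9 were called, beside 9.58% of all genes. Between the late cells of low globin alone, the differences of Fech, Slc25a37, Ppox, Cpox and Urod turned to values of 0.34, 0.38, 0.13, 0.053 and 0.038. In all late cells edgeR called 0%, 0%, 0.0223% and 0.0223% of all genes in the 4 comparisons, and DESeq2 called 0, 0, 6 and 0 of the 9 genes. Their unadjusted counts were 8, 1, 9 and 0. Without the share of all genes under that limit, the 8 and the 9 cannot be read as particular to these genes.

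For Dnmt3a against MxCre in late cells, Tfrc was at 1.91 ± 0.69 (adjusted p = 0.33, edgeR) and at 0.23 without Dnmt3a replicate 4. In late cells of low globin Tfrc was at 117, 82.1 and 78.4 CPM in MxCre and at 231 and 199 CPM in the 2 Dnmt3a mice with at least 20 such cells. These did not overlap, but the difference of 1.10 had an adjusted p of 0.22 in edgeR. That adjusted p was 0.046 once Dnmt3a replicate 1 was added, the only mouse with 10 to 19 such cells (13 late cells, of which 2 were of high globin). Granulocyte markers summed to 140 to 4521 CPM (median 216) in all late cells of the 3 Dnmt3a mice, to 205 to 347 CPM (median 261) in Tnfr2KO and to 64.2 to 285 CPM (median 138) in MxCre, so 1 Dnmt3a mouse set the top of the range. These 3 mice include Dnmt3a replicate 4, which is not in the low-globin comparison. In late cells of low globin, the granulocyte sums reached 5228 CPM (median 150) over the 12 mice of all groups, and sums by group are not given. The 8 neutrophil markers summed to 13.006 to 299 CPM (median 235) in Dnmt3a, 5.40 to 140 CPM (median 27.3) in Tnfr2KO and 30.3 to 72.9 CPM (median 35.9) in MxCre. The part of these markers was not tested.

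In early erythroid cells, 3 of the 4 planned comparisons could not be made with sums of at least 20 cells, since the 4 Dnmt3a mice had 16, 72, 12 and 1 early cells. The one left was Tnfr2KO against Tnfr1KO-labelled. None of the 8 genes tested was called (0.0886% of all genes, edgeR), 1 had an unadjusted p under 0.05, and DESeq2 called none. The difference between late and early cells of each gene was also compared between these groups. It was 0.95 in Tnfr2KO and 2.99 in Tnfr1KO-labelled for Slc25a37, and 4.80 and 7.01 for Alas2 (mean difference in log2(CPM + 1)). None of the 9 differences passed an exact two-sided permutation test (lowest p = 0.114, adjusted p = 0.257), in which 4 mice against 3 cannot go below 0.0571. With sums of at least 10 cells, which admit 3 Dnmt3a mice, none of the 36 differences over the 4 comparisons passed (lowest adjusted p = 0.588), and 3 mice against 3 cannot go below 0.1.

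The gene lists gave few calls between groups. Over all cells, none of the tested genes of the 4 lists was called in any comparison. In non-erythroid cells 1 of 19 iron genes was called in Dnmt3a against MxCre, beside 3.73% of all genes: Tfr2 fell by 0.86 ± 0.19 (adjusted p = 0.034, edgeR). Over all cells, Gata2, a marker of early progenitors, was at 80.9 to 104.9 CPM in MxCre and 26.008 to 71.3 CPM in Dnmt3a, and the megakaryocyte marker Pf4 at 250 to 531 CPM and 9.87 to 252 CPM, and the part of lineage make-up in the fall of Tfr2 was not tested. In HSC/MPP of the same comparison 3 of 20 heme genes were called. Blvrb fell by 0.58 ± 0.17, Abcg2, a porphyrin exporter, fell by 0.53 ± 0.16, and Clpx, a mitochondrial protease subunit that acts on aminolevulinate synthase, rose by 0.46 ± 0.14, against 9.64% of all genes called. Alas1 was called in no comparison between groups.

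By the RefSeq annotation of GRCm38.p6, the build the counts were made on, Alas2 lies on chrX:150547417-150570622, Alad on chr4:62505984-62520063, Uros on chr7:133686142-133710467, Urod on chr4:116989965-116994436 and Cpox on chr16:58670208-58680391. Ppox lies on chr1:171276991-171281193, Fech on chr18:64456542-64489098, Tfrc on chr16:32608896-32632794 and Slc25a37 on chr14:69241848-69285544. The counts are taken over whole genes, so isoforms and untranslated regions cannot be told apart.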

How the data were processed

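The authors deposited 1 matrix per mouse, with counts of UMIs for each gene in each cell, made with Cell Ranger 6.0.0 and bcl2fastq 2.20.0.422 on mm10 (GRCm38), per the submitters' processing notes, from 3' libraries of the 10x Chromium version 3.1 chemistry, per the labels' protocols. The notes give no role or order for these tools.

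Cells below 1000 UMIs or 500 detected genes, or with 10% or more of their UMIs from mitochondrial genes, were dropped, and doublets called against simulated doublets, at 0.8% per 1000 cells, were removed. Each cell took the lineage with the highest mean standardised marker level among 11 lists of 89 genes in all, if that mean was at least 0.5, led the next list by 0.2 and rested on 3 markers with a UMI. The numeric limits were set after the data had been seen, and 356 cells lay within 0.1 of the limit on the erythroid score.

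UMIs were summed per mouse and class with at least 20 cells. Across these sums, edgeR 4.0.16 (under R 4.3.3) was run with its quasi-likelihood test, two-sided, after filterByExpr and TMM scaling, with Benjamini-Hochberg adjustment over all genes tested, called at an adjusted p below 0.05. Levels in CPM use total UMIs without TMM. DESeq2 1.42.0, RLE scaling, other filters, gates and depths, a replicate block and leaving out each mouse were tried as alternatives. On simulated counts, 82% of genes changed by a log2 fold of 1 and 100% of those changed by 2 were recovered for Dnmt3a against MxCre over all cells (15647 genes, 5 false calls). The changed genes were drawn at random from those with a mean above 5 CPM, each with its own estimated spread. These shares are averages over such genes and do not carry over to a single gene as variable as Alas2. Group comparisons within cell classes were not simulated.

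The 9 genes and the lists were chosen with earlier results of these data known. The text names the 9 genes and the targeted genes, Alas1, per list and comparison the 3 called genes of largest change, and the 5 genes most like Alas2 and Tfrc. Ahsp was listed but not analysed here, and 1 gene that the rule names is not reported here. For the lineage comparisons some of the list genes of largest change are not named. Mice were not paired by the replicate numbers of the labels in the main fits. Of 19 same-numbered pairs, 5 had a correlation of deviations over 0.1 (range −0.335 to 0.239). Pairs of different number were not compared, so these values cannot decide whether same-numbered mice share a donor or a batch.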

Additional observations from a re-analysis of the deposited data

Results flagged for a closer look

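In groups of 4 mice, a mouse was singled out when its gap to the nearest other mouse took up most of the range of the group. Of 44 such groups of values, 8 held one. Chance gives about 1 in 20 for a single group of values. The 44 share mice and genes that vary together, so the count of 8 cannot be read as an excess.

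Dnmt3a replicate 4 accounts for 4 of them. Over all cells it had Alas2 at 61.3 CPM (0.396 to 1.73 CPM in the other 3 mice), Ppox at 21.8 CPM (11.2 to 12.999) and Fech at 48.9 CPM (15.8 to 18.5). Late cells of high globin made up 88.7% of its erythroid cells, against 0.896% to 14.4% in the others.

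Tnfr2KO replicate 4 had higher levels in late erythroid cells of Alad (277 CPM, against 165 to 180), Uros (31.5 CPM, against 19.2 to 20.97) and Ppox (59.0 CPM, against 28.6 to 33.3). Alas2 in double-positive cells was at 0.153 CPM in Tnfr2KO replicate 2 and at 0 in the other 3, a value that rests on 2 UMIs.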

How the results depend on the processing

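Between stages, the call of Tfrc in early cells against HSC/MPP was lost without MxCre replicate 1. Ppox was called there by DESeq2, without Dnmt3a replicate 4 and with cells thinned to 5000 UMIs for the gate, and Fech with the last. The other changed calls were between groups. By DESeq2, 1 of the 9 genes was called over all cells and in granulocytes (Dnmt3a against MxCre), 1 in non-erythroid cells in that comparison and 1 for Tnfr2KO against Dnmt3a, and 6 in late cells of Tnfr2KO against Dnmt3a. Without the filter on low counts, 1 was called in double-positive cells in each of the first 3 comparisons and 5 in those late cells. In double-positive cells, 1 was called for Dnmt3a against MxCre with only the 2 groups fitted, and 1 with the replicate number as a replicate block. Whether the numbers pair the mice is not known. In low-globin late cells with sums of at least 10 cells, 1 was called for Dnmt3a against MxCre. Leaving out each mouse gave 0 to 9 calls in late cells of Tnfr2KO against Dnmt3a (9 without Dnmt3a replicate 2 or 3) and 0 to 1 in double-positive and non-erythroid cells. Where the share of all genes called in a setting is not given above, these counts cannot be read as an excess. The cause of the changed calls was not tested.

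For Tnfr2KO against Dnmt3a in late cells of low globin, log2 differences reversed to 0.038 for Urod, 0.053 for Cpox, 0.131 for Ppox, 0.337 for Fech and 0.385 for Slc25a37. With sums of at least 10 cells they were 0.025 for Alad, 0.022 for Uros, 0.201 for Urod, 0.180 for Ppox, 0.305 for Fech and 0.0879 for Slc25a37. Over all cells Alas2 ran from −3.70 to 0.50 with each mouse left out, and it reversed without Dnmt3a replicate 4. The erythroid share in Tnfr2KO against Dnmt3a reversed to −0.137 percentage points under a stricter gate and to −0.335 with cells thinned to 5000 UMIs. With each mouse left out it ran from −1.73 to 2.40, that of Tnfr1KO-labelled against Dnmt3a from −2.52 to 3.12, and that of Tnfr2KO against Tnfr1KO-labelled from −2.51 to 3.13. With the replicate block, the last became 1.17, and the late share became 1.65 for Tnfr1KO-labelled against Dnmt3a and −2.36 for Tnfr2KO against Tnfr1KO-labelled. With each mouse left out, the late share ran from −19.5 to 1.65 for Tnfr1KO-labelled against Dnmt3a, from −18.6 to 2.52 for Tnfr2KO against Dnmt3a (both highest without Dnmt3a replicate 4) and from −2.77 to 4.52 for Tnfr2KO against Tnfr1KO-labelled. None of these shares passed the permutation test in the settings where it was run, and the replicate block had no test. After adjustment over the 4 comparisons the exact test could not have passed at these numbers of mice. The absence of a call therefore says nothing about the shares.

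Late cells numbered 13 to 269 per mouse, and 3 of 4 Dnmt3a mice had under 20 early cells, so early comparisons with Dnmt3a were not run at 20 cells. How cell number bears on the calls within late cells was not tested.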
